A study of Mus musculus with 10 samples.

Results

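Olig1 and Olig2 are the transcription factor genes that set up the oligodendrocyte lineage, and both lie in the chromosome segment that is duplicated in Dp1Tyb mice. They were studied here in the hippocampus together with marker genes of oligodendrocyte precursor cells that lie elsewhere in the genome and have the normal 2 copies. The members were chosen by gene symbol through the Ensembl gene ID, and 9 of the 10 genes chosen (Olig1, Olig2, Sox10, Pdgfra, Cspg4, Gpr17, Nkx2-2, C1ql1 and Bcas1) had a row among the 43629 genes of the count table. Lhfpl3, the other gene, was not analysed here. All 9 passed the filter on low counts, which left 17237 tested genes.

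RNA sequencing was carried out on the whole hippocampus of 5 Dp1Tyb and 5 wild-type (WT) mice, adult males with the age label 18 weeks, with the strain label C57BL/6J.129P2 and, by the study's methods, backcrossed to C57BL/6JNimr. Dp1Tyb mice, with the genotype Dp(16Lipi-Zbtb21)1TybEmcf, are a mouse model of Down syndrome that carries 3 copies of the chromosome 16 genes between Lipi and Zbtb21, these included, which correspond to those of human chromosome 21. WT mice were littermates with 2 copies. Each mouse gave 1 library, with total counts between 18227684 and 43692270, and the duplication was present in the germline, so that it was not limited to one cell type.

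Oligodendrocytes form the myelin sheaths around axons. They arise from precursor cells that stay present and can divide in the adult brain, and a precursor that starts to differentiate passes through a committed, newly formed stage before it makes myelin. Olig2 and Olig1 are basic helix-loop-helix factors found in precursors and in mature oligodendrocytes, and Sox10 is the HMG-box factor that acts with them on myelin genes. Pdgfra encodes the receptor through which platelet-derived growth factor drives precursors to divide, and Cspg4 encodes the proteoglycan NG2 on their surface. Bulk tissue RNA cannot separate a smaller number of these cells from less RNA per cell.

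Olig2 RNA was 1.23-fold higher in Dp1Tyb than in WT, with no overlap between the genotypes, but narrowly missed the threshold of the test across all genes, and Olig1 RNA was 1.13-fold higher, with overlap. Both estimates had 95% intervals that ended below the 1.5-fold expected from 3 copies over 2. None of the 7 members with 2 copies passed the test. The targeted segment itself was expressed at a higher level: 68 of its 114 tested genes, or 59.6%, were called higher in Dp1Tyb by edgeR's quasi-likelihood test at a Benjamini-Hochberg adjusted p under 0.05, compared with 191 genes, or 1.11%, of all 17237 tested genes called in either direction.

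Olig2 (ENSMUSG00000039830) lies on the forward strand of chromosome 16 at 91225457 to 91228677 in GRCm38, and Olig1 (ENSMUSG00000046160) on the same strand at 91269772 to 91271933, with 44.3 kb between their starts. The sequence just upstream of Olig2 is shown because it belongs to the duplicated member in which the genotypes did not overlap. It is the part of the RefSeq promoter window before the annotated gene start, chr16:91225300-91225456 on the forward strand of GRCm38.p6, and capitals mark the motif CCAAT, here read on the other strand as ATTGG.
Olig2: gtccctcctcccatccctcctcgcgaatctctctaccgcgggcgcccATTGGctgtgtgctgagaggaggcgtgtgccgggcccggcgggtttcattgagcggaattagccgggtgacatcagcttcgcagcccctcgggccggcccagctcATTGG
These 157 bases held 2 copies of CCAAT and no copy of CANNTG, the E-box to which basic helix-loop-helix factors bind. Over the same length of all 32851 mouse promoter windows in the table, searched on both strands, 21% held at least 1 CCAAT, 3.87% at least 2 and 50.8% at least 1 CANNTG. The motifs do not overlap each other, and a match is a description of the letters and not a binding site. Of the 10 genes chosen, 5 had a promoter entry (Olig2, Pdgfra, Cspg4, Nkx2-2 and Lhfpl3).

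Levels between genes were compared per exon length, as RPKM (CPM per kilobase of exon, where CPM scales the counts of a gene to the size of its library), and differed widely among the members. In WT the highest was Olig1 at 41.4 ± 7.13 RPKM (SD, n = 5), followed by Bcas1, which marks newly formed oligodendrocytes, at 27.98 ± 3.71 RPKM and Sox10 at 14.7 ± 1.25 RPKM. Olig2 followed at 8.63 ± 0.661 RPKM and Gpr17, a receptor of committed precursors, at 7.91 ± 0.337 RPKM. Pdgfra stood at 6.07 ± 0.352 RPKM and C1ql1, which encodes a secreted protein of the C1q family, at 4.53 ± 0.540 RPKM. The lowest levels were those of Cspg4 at 2.25 ± 0.240 RPKM and of Nkx2-2, a homeodomain factor of the lineage, at 0.965 ± 0.165 RPKM. Of neighbours in this order, only Olig2 and Gpr17 overlapped over the 5 WT samples. The order of the means was the same in Dp1Tyb, in which Olig2 was at 10.6 ± 0.884 RPKM and Gpr17 at 7.43 ± 0.824 RPKM. The myelin gene Mbp reached 259 ± 22.2 RPKM in WT, so that RNA of mature oligodendrocytes was also present.

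The first question was whether the extra copy raised the 2 duplicated members. Values between samples are given as CPM, with library sizes adjusted by the TMM factors of edgeR. Olig2 was measured in WT replicates 1 to 5 at 22.5, 19.6, 22.2, 20.9 and 24.01 CPM. In Dp1Tyb replicates 1 to 5 it was at 26.2, 24.9, 28.5, 24.96 and 29.9 CPM. Every Dp1Tyb sample was thus above every WT sample, although the highest WT sample and the lowest Dp1Tyb sample were close. Of all tested genes, 441, or 2.56%, had such a separation with Dp1Tyb higher. The mean of Olig2 was 21.8 ± 1.67 CPM in the WT mice and 26.9 ± 2.24 CPM in the Dp1Tyb mice (SD, n = 5 each), a log2 fold change of 0.30 ± 0.070 (SE). Its p was 0.000888 before adjustment and 0.0618 after adjustment over all tested genes in edgeR, so Olig2 was not called. DESeq2, which called 507 genes or 3.2% of those to which it gave an adjusted p, did call Olig2, at an adjusted p of 0.00573.

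Olig1 differed less from WT and varied more between mice. Its values in WT replicates 1 to 5 were 82.7, 79.5, 83.4, 84.6 and 116.8 CPM. In Dp1Tyb replicates 1 to 5 they were 85.1, 102.7, 105.2, 89.0 and 122.5 CPM. The Dp1Tyb samples all exceeded the first 4 WT samples, but WT replicate 5 lay above 4 of the 5 Dp1Tyb samples. The mean was 89.4 ± 15.4 CPM in the WT mice and 100.9 ± 14.8 CPM in the Dp1Tyb mice (SD, n = 5 each). The log2 fold change was 0.17 ± 0.11 (SE), with an adjusted p of 0.505 in edgeR, and the difference was thus within the spread between mice. Without WT replicate 5 the log2 fold change was 0.29 (adjusted p = 0.200), and without Dp1Tyb replicate 5 it was 0.095 (adjusted p = 0.687).

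**Figure D1:**
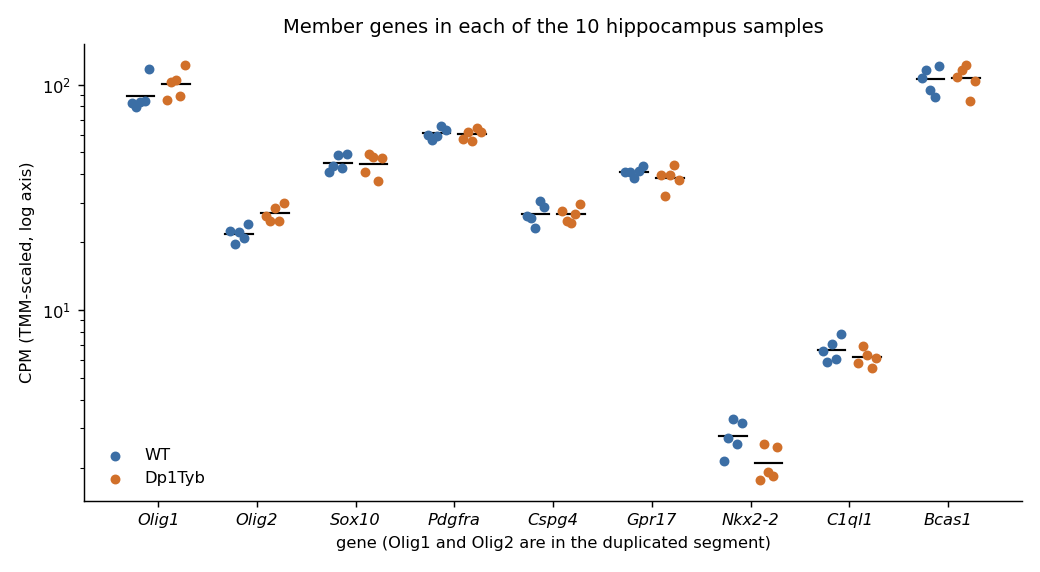
Level of each member gene (horizontal axis) in CPM on a log axis in the 5 WT (blue) and 5 Dp1Tyb (orange) samples. Points are single mice, from replicate 1 on the left to replicate 5 on the right, and black lines are means. Olig2 is the gene whose 5 Dp1Tyb points all lie above its 5 WT points.

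The size of both differences was then compared with that expected from copy number. A gene with 3 copies in place of 2 that is expressed in proportion has a fold change of 1.5, or 0.585 on the log2 scale. The 95% interval of the log2 fold change was from 0.15 to 0.45 for Olig2, or 1.11-fold to 1.37-fold, and from -0.07 to 0.42 for Olig1, or 0.953-fold to 1.33-fold. Both upper bounds were below 0.585, and this also held for both genes in each of 16 alternative fits that give an interval, with the highest upper bound at 0.54 for Olig1 and 0.52 for Olig2. Of the 114 tested genes of the segment, 19 had an upper bound below 0.585, 83 had an interval that held it and 12 had a lower bound above it. The median log2 fold change of the 114 genes was 0.53, with quartiles of 0.34 and 0.64. In order from the lowest, Olig1 was number 18 and Olig2 number 26.

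Many genes of the segment are weakly expressed and have wide intervals, so those with a mean of at least 10 CPM were also counted on their own. There were 66 of them, with a median log2 fold change of 0.57, and 58 were called higher. Olig1 and Olig2 were among the 8 that were not called, and were number 3 and number 6 from the lowest. The pair below Olig1, named after their values were seen, were Kcne2 and Clic6, with log2 fold changes of -0.43 ± 0.83 and -0.40 ± 0.87 (SE). Clic6 is a marker of the choroid plexus, the secretory tissue of the ventricles, a tissue whose markers varied widely between the libraries. The others not called were Setd4, Slc5a3, Ifnar2 and Mrps6, at log2 fold changes between 0.28 and 0.51. Of the 66 genes, 11 had an upper bound below 0.585, Olig1 and Olig2 included.

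**Figure D2:**
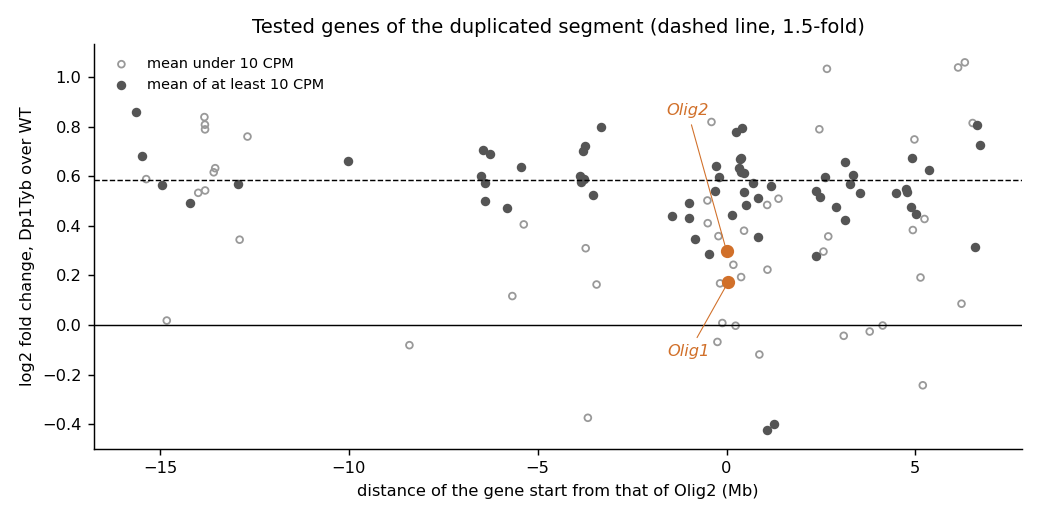
Log2 fold change of Dp1Tyb over WT (vertical axis) for the 114 tested genes of the duplicated segment against the distance of their start from that of Olig2 in Mb (horizontal axis). Filled points are genes with a mean of at least 10 CPM, open points are genes below that, and the dashed line marks 1.5-fold. Olig1 and Olig2 (orange) lie below most filled points.

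The genes around the Olig2 and Olig1 pair were examined next, and no tested gene lies between them. On the side of Olig2, the nearest well measured gene was Paxbp1, which encodes a protein that binds PAX3 and PAX7 and starts at -211 kb relative to Olig2. It rose from 61.6 ± 1.02 CPM in the WT mice to 93.1 ± 3.44 CPM in the Dp1Tyb mice (SD, n = 5 each), a log2 change of 0.60 ± 0.036 (SE, adjusted p = 7.47e-07 in edgeR). On the side of Olig1, the nearest was Ifnar2, a subunit of the type I interferon receptor that starts at 147 kb. Its means were 11.1 ± 1.45 CPM and 15.1 ± 2.03 CPM, a log2 change of 0.44 ± 0.11 (SE, adjusted p = 0.0744 in edgeR), which was not called in edgeR but was in DESeq2 (adjusted p = 0.00573) and in 5 of the other alternatives, among them those without the filter on low counts and without Dp1Tyb replicate 4. Il10rb, a subunit of the interleukin 10 receptor, had a log2 change of 0.24 ± 0.18 (SE, adjusted p = 0.562). Ifnar2 and Il10rb overlap the exons of Gm21970, so their counts are less certain. The remaining neighbours by distance were 4932438H23Rik, H3f3a-ps2 and A930006K02Rik, with log2 fold changes of 0.17 ± 0.29, 0.008 ± 0.35 and -0.003 ± 0.31 (SE), of which the last 2 changed sign in several alternatives. All 6 neighbours had intervals that held 0.585, unlike Olig1 and Olig2. However, the intervals of Il10rb, 4932438H23Rik, H3f3a-ps2 and A930006K02Rik were wide and held 0 as well, and their estimates were below that of Olig2.

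The next question was whether markers of the same lineage with 2 copies differed between the genotypes. None of the 7 was called in edgeR, nor in DESeq2 or any other of the 18 alternatives, and 1 had an unadjusted p under 0.05, as did 2477, or 14.4%, of all tested genes. Their median log2 fold change was -0.018, next to -0.0041 for all tested genes. Their 95% intervals all ended below 0.585.

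Sox10 (ENSMUSG00000033006, chromosome 15, 79154908 to 79165240, reverse strand) was at 40.9, 43.3, 48.8, 42.6 and 49.3 CPM in WT replicates 1 to 5. It was at 41.2, 49.2, 47.6, 37.2 and 47.4 CPM in Dp1Tyb replicates 1 to 5. The genotypes overlapped over almost their whole range, and the log2 change of -0.02 ± 0.080 (SE, 95% interval -0.19 to 0.16, adjusted p = 0.949 in edgeR) took the other sign in 6 alternatives. Pdgfra (ENSMUSG00000029231, chromosome 5, 75152292 to 75198215, forward strand) was at 59.6, 56.7, 59.4, 65.8 and 63.0 CPM in WT and at 57.3, 61.4, 56.3, 64.0 and 61.9 CPM in Dp1Tyb. It had the narrowest interval of the members, with a log2 change of -0.02 ± 0.051 (SE, 95% interval -0.13 to 0.09, adjusted p = 0.902). Pdgfra is also expressed by fibroblasts of the meninges and vessels, whose markers summed to between 44.4 and 108.6 CPM in WT and between 72.1 and 90.3 CPM in Dp1Tyb.

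Cspg4 (ENSMUSG00000032911, chromosome 9, 56865033 to 56899870, forward strand) ranged from 23.1 to 30.5 CPM in WT and from 24.3 to 29.7 CPM in Dp1Tyb. Its log2 fold change was -0.01 ± 0.078 (SE, adjusted p = 0.956), and its product NG2 is also carried by pericytes. C1ql1 (ENSMUSG00000045532, chromosome 11, 102939264 to 102946688, reverse strand) had means of 6.68 ± 0.795 CPM in the WT mice and 6.17 ± 0.536 CPM in the Dp1Tyb mice. Its log2 fold change was -0.11 ± 0.10 (SE, adjusted p = 0.630), and 2 of the 5 Dp1Tyb samples lay below all WT samples.

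Of the members that mark committed or newly formed cells, Gpr17 (ENSMUSG00000052229, chromosome 18, 31942997 to 31949636, reverse strand) was at 41.1 ± 1.75 CPM in the WT mice and 38.6 ± 4.28 CPM in the Dp1Tyb mice. The spread among Dp1Tyb mice was the wider, from 32.1 to 43.9 CPM, and the log2 fold change was -0.09 ± 0.070 (SE, adjusted p = 0.575). Exons of Gpr17 overlap those of Lims2 on the other strand, which had 143 to 383 counts per library. Bcas1 (ENSMUSG00000013523, chromosome 2, 170346991 to 170427845, reverse strand) was at 105.6 ± 14.02 CPM in the WT mice and 106.9 ± 14.5 CPM in the Dp1Tyb mice, with a log2 change of 0.02 ± 0.10 (SE, adjusted p = 0.958) that changed sign in 4 alternatives.

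Nkx2-2 (ENSMUSG00000027434, chromosome 2, 147177546 to 147194243, reverse strand) had the largest difference among the 7 and the lowest level. Its values were 2.15, 2.70, 3.31, 2.54 and 3.17 CPM in WT replicates 1 to 5. In Dp1Tyb replicates 1 to 5 they were 1.77, 2.55, 1.92, 1.85 and 2.46 CPM, with 3 of the 5 samples below all WT samples. The log2 fold change of -0.39 ± 0.16 (SE, 95% interval -0.73 to -0.05) had an unadjusted p of 0.0282 and an adjusted p of 0.289 in edgeR, so Nkx2-2 was not called. It kept its sign in all 18 alternatives, in which it ranged from -0.48 to -0.25. The antisense gene Nkx2-2os overlaps it and had 5 to 17 counts per library.

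**Figure D3:**
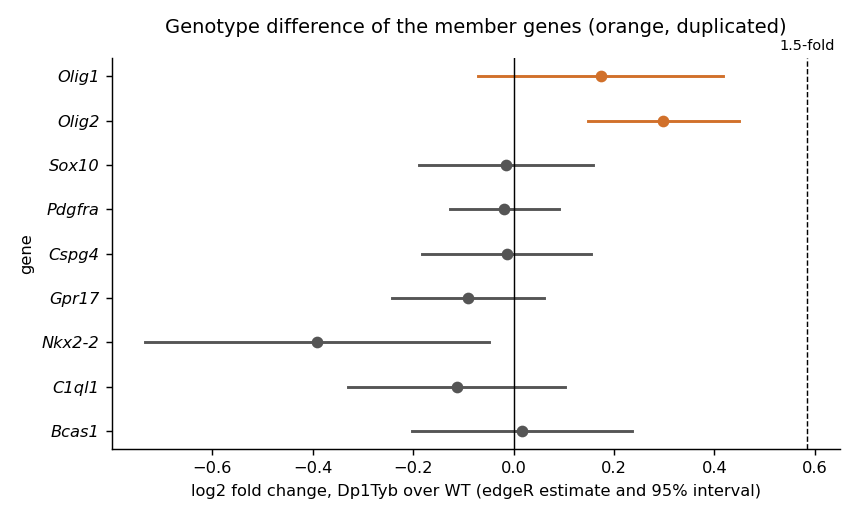
Log2 fold change of Dp1Tyb over WT (horizontal axis) for the 9 member genes (vertical axis). Points are edgeR estimates, bars are 95% intervals, the solid line is no difference and the dashed line is 1.5-fold. The bar of Olig2 (orange) lies between both lines, that of Olig1 (orange) crosses 0, and of the genes with 2 copies (grey) only Nkx2-2 has a bar that excludes 0.

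Ratios within a library compare a duplicated gene with a gene of the same lineage that has 2 copies, and do not depend on the scaling between libraries. The ratio of Olig2 to Sox10 in CPM was 0.551, 0.452, 0.454, 0.490 and 0.487 in WT replicates 1 to 5. It was 0.636, 0.506, 0.598, 0.670 and 0.632 in Dp1Tyb replicates 1 to 5, and 4 of these 5 lay above all WT samples. The difference of 0.31 on the log2 scale, or 1.24-fold, had p = 0.0159 in an exact two-sided permutation test over the 10 samples (0.0476 after adjustment over the 3 ratios tested). The smallest p that this design allows is 0.00794. This call was lost when any 1 of 7 libraries was left out (WT replicates 2, 3 and 4 and Dp1Tyb replicates 1, 3, 4 and 5), with adjusted p-values of up to 0.119, while the log2 difference stayed between 0.28 and 0.38 over all 10 such fits. With 4 against 5 samples, the most extreme split in each direction gives a permutation p of 0.0159. After adjustment this is 0.0476 for 1 ratio alone. These fits thus had little room to pass, and the losses alone do not show dependence on single libraries.

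The ratio of Olig1 to Sox10 was 2.02, 1.83, 1.71, 1.98 and 2.37 in WT replicates 1 to 5. It was 2.07, 2.09, 2.21, 2.39 and 2.59 in Dp1Tyb replicates 1 to 5, where all values lay above the first 4 WT samples and 2 lay above all 5. The difference of 0.20 on the log2 scale, or 1.15-fold, did not pass the exact permutation test (p = 0.0873, adjusted p = 0.131). It passed only without WT replicate 5, at 0.26 (adjusted p = 0.0476). The ratio of Olig1 to Olig2 ranged from 3.67 to 4.86 in WT and from 3.25 to 4.13 in Dp1Tyb, a difference of -0.12 on the log2 scale (exact permutation p = 0.278, adjusted p = 0.278), so that a different fold change of the 2 duplicated genes was not detected.

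**Figure D4:**
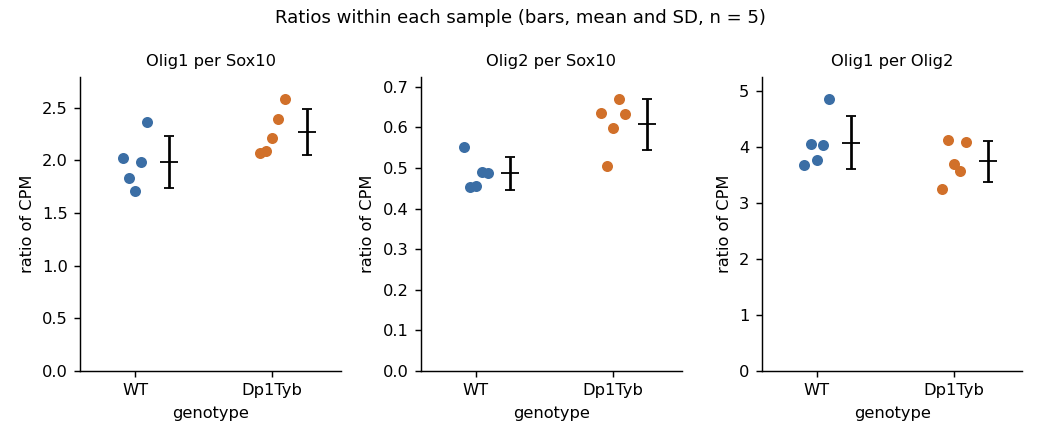
Ratio of the CPM of Olig1 to Sox10, Olig2 to Sox10 and Olig1 to Olig2 (vertical axes, from 0) in each WT (blue) and Dp1Tyb (orange) sample. Black marks are means with SD, n = 5. For Olig2 to Sox10, 4 of the 5 Dp1Tyb points lie above all WT points.

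Markers of the choroid plexus varied between the dissected samples. The 6 markers summed to between 419 and 5310 CPM in WT and between 34.9 and 3834 CPM in Dp1Tyb, and the lowest libraries were Dp1Tyb replicates 1 and 4, in which Ttr, the main secreted protein of that tissue, was at 12.9 and 15.8 CPM, compared with 361.6 CPM or more in the others. These were also the Dp1Tyb samples with the lowest Olig1 and Sox10. Without both libraries the log2 fold change of Olig1 was 0.30 (adjusted p = 0.359) and that of Olig2 was 0.34 (adjusted p = 0.103). With the choroid plexus level as a covariate they were 0.30 (adjusted p = 0.134) and 0.36 (adjusted p = 0.00930), and Olig2 was then called in edgeR.

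A wider set of lineage genes was examined by lists. Of 22 further genes expressed by precursors, 4 had an unadjusted p under 0.05 (14.4% of all tested genes) and 1 was called (1.11% of all tested genes), Dscam, a cell adhesion gene that is itself in the duplicated segment. It rose from 79.5 ± 6.36 CPM in the WT mice to 122.8 ± 3.51 CPM in the Dp1Tyb mice (SD, n = 5 each), a log2 change of 0.63 ± 0.051 (SE, adjusted p = 1.25e-05 in edgeR), and neurons express it as well. The proteoglycan gene Vcan and the phosphatase gene Ptprz1 had log2 fold changes of -0.02 ± 0.072 and 0.03 ± 0.089 (SE). The genotypes did not overlap for Dscam, with Dp1Tyb higher, nor for Sox11, named after its values were seen, with Dp1Tyb lower, a separation that 193 genes or 1.12% of all tested genes had in that direction. Sox11, a factor of immature neurons and progenitors, was at 11.7 ± 1.04 CPM in the WT mice and 9.24 ± 0.600 CPM in the Dp1Tyb mice, a log2 change of -0.34 ± 0.079 (SE, adjusted p = 0.0614 in edgeR). The median log2 fold change of the 22 genes was -0.027.

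Of the 13 tested genes of newly formed oligodendrocytes, none was called in edgeR, while 6 had an unadjusted p under 0.05, 3 higher and 3 lower, where 14.4% of all tested genes did. Enpp6, a phosphodiesterase gene of the newly formed stage, was at 5.0, 3.8, 5.4, 4.3 and 5.5 CPM in WT replicates 1 to 5 and at 2.8, 4.0, 4.2, 3.6 and 3.8 CPM in Dp1Tyb replicates 1 to 5. Its log2 fold change was -0.38 ± 0.14 (SE, adjusted p = 0.231), with 3 of the 5 Dp1Tyb samples below all WT samples. Bmp4, a signalling ligand made by early oligodendrocytes, was low and variable, with a log2 change of -0.54 ± 0.23 (SE, adjusted p = 0.321). Fyn, the kinase gene, was the single gene of this list without overlap, a separation with Dp1Tyb higher that 2.56% of all tested genes had, and was named after its values were seen, at 124.8 ± 2.26 CPM in the WT mice and 133.7 ± 2.75 CPM in the Dp1Tyb mice (log2 fold change 0.10 ± 0.030 SE, adjusted p = 0.157). The median of the 13 genes was -0.048.

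None of the 15 genes of mature oligodendrocytes was called in edgeR, and 2 had an unadjusted p under 0.05 (14.4% of all tested genes). Of the 15, 11 had higher and 4 lower estimates in Dp1Tyb, with a median log2 fold change of 0.063. The major myelin gene Mbp had a log2 change of -0.04 ± 0.082 (SE, adjusted p = 0.855). In DESeq2, too, no gene of these last 2 lists was called.

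The list of regulators and partners of the Olig factors and Sox10 held 24 genes, of which 21 were tested. None of the 21 was called in edgeR, and 1 had an unadjusted p under 0.05 (14.4% of all tested genes). Their median log2 fold change was -0.043. Sox8, the close relative of Sox10, was at 33.9 ± 3.22 CPM in the WT mice and 31.2 ± 2.96 CPM in the Dp1Tyb mice (log2 fold change -0.11 ± 0.078 SE, adjusted p = 0.528), and Bhlhe22, a relative of the Olig genes, had a log2 change of -0.003 ± 0.077 (SE, adjusted p = 0.992). Olig3, the other gene of the Olig family, had 1 count in 1 library and none in the other 9.

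The ligands and receptors of the PDGF pathway, other than Pdgfra, all had lower estimates in Dp1Tyb. None of the 6 was called in edgeR or DESeq2, 3 had an unadjusted p under 0.05 (14.4% of all tested genes), and the median log2 fold change was -0.19. Pdgfa, the ligand of the receptor on precursors, had a log2 change of -0.07 ± 0.091 (SE, adjusted p = 0.751). Pdgfb, which acts mainly on pericytes, was at 28.1 ± 3.89 CPM in the WT mice and 24.3 ± 2.16 CPM in the Dp1Tyb mice, a log2 change of -0.21 ± 0.091 (SE, adjusted p = 0.327).

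**Figure D5:**
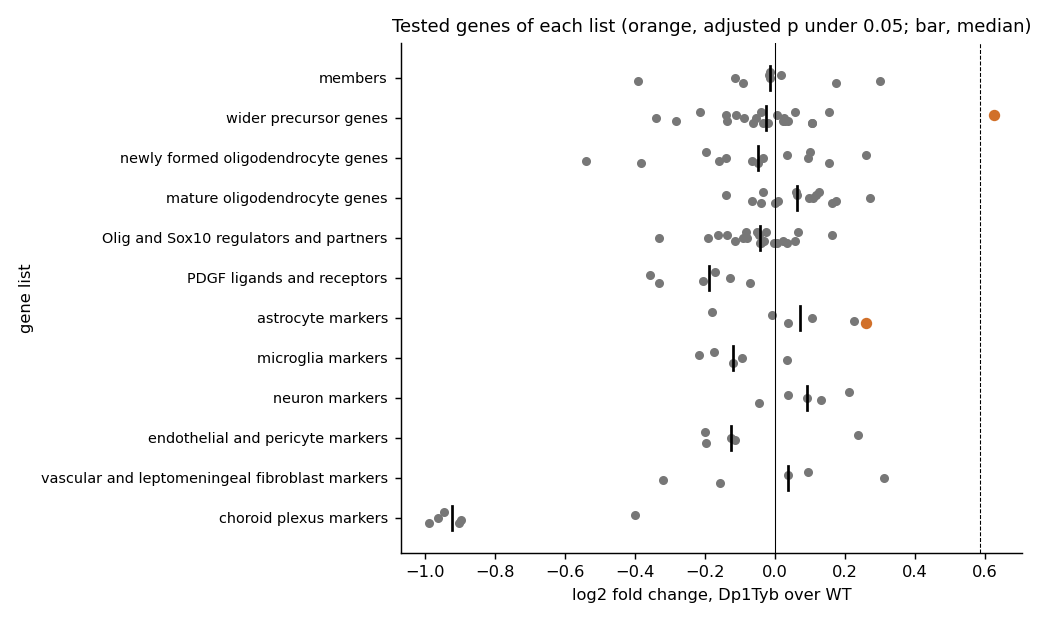
Log2 fold change of Dp1Tyb over WT (horizontal axis) for every tested gene of each list (vertical axis), with the median as a black bar and the dashed line at 1.5-fold. The called genes (orange) are Dscam among the wider precursor genes and Gfap among the astrocyte markers, and the choroid plexus markers have the lowest median, at -0.92.

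Markers of other cells of the hippocampus were read the same way, and the part of cell composition in the results above was not tested. Of 6 astrocyte markers, 1 was called, the filament gene Gfap, which rose from 361.5 ± 16.6 CPM in the WT mice to 433.1 ± 25.7 CPM in the Dp1Tyb mice (SD, n = 5 each; log2 fold change 0.26 ± 0.047 SE, adjusted p = 0.0167 in edgeR). This call was lost without Dp1Tyb replicate 2 (adjusted p = 0.0587), at a log2 fold change of 0.25. Of the 6 markers, 4 had higher and 2 lower estimates. The water channel gene Aqp4 did not overlap between the genotypes either (2.56% of all tested genes with Dp1Tyb higher), with a log2 change of 0.22 ± 0.055 (SE, adjusted p = 0.0721), and was called in DESeq2 and without the filter on low counts. Summed over the 6 markers, the genotypes overlapped, at 3640 to 4349 CPM in WT and 3908 to 4244 CPM in Dp1Tyb. The 5 neuron markers summed to between 4915 and 5209 CPM in WT and between 5365 and 5619 CPM in Dp1Tyb, without overlap. Of the 5, 4 had higher estimates in Dp1Tyb and Rbfox3 a lower one (-0.05). None of them was called in edgeR, with 2 at an unadjusted p under 0.05 (14.4% of all tested genes), while DESeq2 called Gad1. Of single neuron markers, only Gad1 did not overlap between the genotypes (2.56% of all tested genes with Dp1Tyb higher). No microglia, endothelial and pericyte, fibroblast or choroid plexus marker was called in edgeR, with median log2 fold changes of -0.12, -0.13, 0.037 and -0.92. Of these 5, 5, 5 and 6 tested markers, 1, 3, 0 and 0 had an unadjusted p under 0.05 (14.4% of all tested genes). DESeq2 called the pericyte gene Rgs5.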

How the data were processed

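Poly(A) libraries from whole hippocampus (TruSeq Stranded mRNA, 75-base paired ends) were trimmed with Trim Galore, mapped to GRCm38 with TopHat2 2.0.12 and counted with HTSeq by the authors, who discarded reads with several alignments. Strand setting and annotation release are not given in the sources used here. The deposited counts are raw whole numbers of reads per Ensembl gene. The authors' normalized values and their DESeq2 1.6.3 comparison were not used. Symbols, positions and exon lengths came from GENCODE M21 (42548 of 43629 IDs matched). The labels give no batch, and no pair of libraries was alike within sampling noise (smallest chi-square per degree of freedom 4.68).

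Genotypes were compared with edgeR 4.0.16 in R 4.3.3 (quasi-likelihood F-test, TMM, filterByExpr, no covariates, Benjamini-Hochberg over all tested genes, threshold 0.05) on all 10 samples. The SE gives the test's statistic. Ratios used log2(CPM + 0.5) and exact permutation tests. Alternatives were DESeq2 1.42.0, limma 3.58.1 (voom), other scaling, no filter, the replicate number as a block, 0.1 CPM as pseudocount and each sample left out. The fits without 2 libraries and with a choroid plexus covariate were chosen after seeing the data. The scripts were tested on simulated data in which 200 of 17237 genes were changed 1.5-fold. There, edgeR recovered 67.5% of the changed genes, DESeq2 70% and limma voom 68.5%. False calls made up 6.9%, 11.4% and 6.2% of their calls at the threshold of 0.05. Members, lists and tests were chosen with earlier results of these data known. Named genes are the members, the 3 nearest tested genes on each side of the Olig pair, called list genes, the first 2 tested genes of each list and the 5 genes most like Sox10, Olig2 and Pdgfra. Some genes that this rule names are not reported here.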

Additional observations from a re-analysis of the deposited data

Results flagged for a closer look

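Among 24 groups of 5 samples examined, 1 held a sample far from the others, where chance gives about 1.2. This was Olig1 in WT, in which replicate 5 was at 116.8 CPM and the other 4 lay between 79.5 and 84.6 CPM. The gap to its nearest sample took 0.863 of the range of the group, above Dixon's critical value of 0.71. The same sample had the highest Olig2 (24.01 CPM) and Sox10 (49.3 CPM) of the WT group. Without it, the log2 fold change of Olig1 was 0.29 in place of 0.17 and remained uncalled in edgeR (adjusted p = 0.200).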

How the results depend on the processing

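For Olig1, the 18 alternative fits gave log2 fold changes from 0.095 to 0.30, none called, and the members with 2 copies had 0 calls in each of the 18. For Olig2 the sign held in all 18, with adjusted p-values from 0.00573 to 0.156, and it was called in DESeq2 (0.29), with the replicate block (0.30, adjusted p = 0.0187) and with the choroid plexus covariate (0.36). The log2 ratio of Olig2 to Sox10 passed no longer with the replicate block (0.31, adjusted p = 0.0938). There, 5 pairs cannot go below 0.0625 before adjustment, so that no ratio could pass with the block. This ratio also passed no longer without the 2 libraries low in choroid plexus markers (0.24, adjusted p = 0.214). With 5 against 3 samples, the most extreme split in each direction gives a permutation p of 0.0357. After adjustment over the 3 ratios this is 0.107 for 1 ratio alone. The ratio could thus hardly have passed in this fit, and the loss of the call does not show dependence on these libraries. Ifnar2 was also called with the covariate (0.57), without the 2 libraries (0.57) and with the block (0.44). For Olig2 the cause was not tested. Leaving out 1 library gave 0.28 to 0.38 for Olig2 to Sox10, 0.14 to 0.26 for Olig1 to Sox10, 0.26 to 0.33 for Olig2, 105 to 218 genes called in all and 1 to 2 list genes called. The count of called genes was 507 with DESeq2, 315 with the block and 120 without the 2 libraries, and that of list genes was 6 with DESeq2 (Aqp4, Dscam, Gad1, Gfap, Rgs5 and Sox11) and 4 with the block (Dscam, Gad1, Gfap and Rgs5). Without 1 library, the estimate ranged from -0.055 to 0.041 for Sox10, -0.047 to 0.012 for Pdgfra, -0.060 to 0.039 for Cspg4, -0.043 to 0.089 for Bcas1, -0.14 to -0.031 for Gpr17, -0.16 to -0.051 for C1ql1, 0.10 to 0.36 for Il10rb, 0.010 to 0.31 for 4932438H23Rik, -0.19 to 0.22 for H3f3a-ps2 and -0.15 to 0.15 for A930006K02Rik. Sox10 was at 0.079 with the covariate and 0.096 without the 2 libraries, H3f3a-ps2 at -0.17 and -0.30, and A930006K02Rik at 0.20 and 0.11, and at 0.0075 with the block. The replicate numbers were not taken to pair the mice, since the labels name no litter and the correlation of same-numbered samples over genes was between -0.069 and 0.28, above 0.1 in 3 of 5. Depth limits Nkx2-2 most among the members, at under 4 CPM, and the neighbours H3f3a-ps2 and A930006K02Rik more, at under 2 CPM.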

Other observations

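Likeness between genes was measured as Pearson's r of log2(CPM + 0.5) over the 10 samples after the mean of each genotype was taken off, among 15091 genes with a mean of at least 1 CPM, as a description without a test. All values share the same libraries. Among the members, Sox10 was most like Nkx2-2 (r = 0.82) and C1ql1 (r = 0.79), Olig1 most like Olig2 (r = 0.75), and Pdgfra most like Cspg4 (r = 0.61). The most negative values were those of Pdgfra with Bcas1 (r = -0.61) and of Sox10 with Gpr17 (r = -0.61). Outside the members, the genes most like Sox10 were Ankrd40, Rab7b, Ado, Puf60 and Paxx, with r from 0.94 to 0.97. Those most like Olig2 were Ubxn11, Tgfa, Mansc4, Dmpk and Idh2, with r from 0.94 to 0.98, and those most like Pdgfra were Zfp92, Ripor2, Mtfp1, Ccnd1 and Ackr3, with r from 0.90 to 0.93. Of these 15 genes, Ubxn11 was called lower in Dp1Tyb (log2 fold change -0.41, adjusted p = 0.0331 in edgeR). None of the 15 belongs to the lists of the oligodendrocyte lineage.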
